A study of Mus musculus with 8 samples.

Results

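Fibro-adipogenic progenitors (FAPs) and pericytes are the mesenchymal cells that lie between muscle fibers and around capillaries, and 10 genes that are widely used to mark them were followed here: Pdgfra, Pdgfrb, Ly6a, Cd34, Thy1, Tcf7l2, Dpp4, Cd248, Twist2 and Rgs5. They were taken by gene symbol from a table of 55401 genes, in which each of the 10 symbols had a row. RNA was sequenced from the whole tibialis anterior (TA), a fast hindlimb muscle, of male mice aged 6 months. The 4 WT mice were C57/Bl6 and labelled as wild type, and the 4 mdx5cv mice carried a Dmd mutation on the same B6 background, which makes them a model of Duchenne muscular dystrophy. No animal received a treatment by the labels, and the labels do not say whether the muscles of a group came from littermates. The p-values set the difference between the groups against the spread of the muscles within them. A difference of litter between the groups could not be told apart from that of genotype.

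FAPs are marked by the receptor PDGFRα. They are known to multiply after muscle injury, to supply signals that satellite cells (the muscle stem cells) use, and to turn into matrix-producing fibroblasts or adipocytes when injury persists. Pericytes carry the related receptor PDGFRβ, sit on the wall of capillaries and depend on PDGF-B made by endothelial cells. Several of the markers are shared with other cells: Cd34 and Ly6a are also made by endothelial cells, and Thy1 by T lymphocytes and neurons.

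Values are normalized counts, which are reads divided by a factor that scales each library to a common level. The muscles held 13175524 to 14921057 reads assigned to genes. Dmd, the mutated gene, was read in every muscle, with normalized counts of 6914, 8155, 6579 and 6169 in WT and 4400, 4056, 3941 and 3461 in mdx5cv. Its log2 fold change was -0.81 (SE 0.12, adjusted p = 0.000177, limma), and the groups did not overlap. All 10 markers were read in every muscle, from a mean of 5.82 normalized counts for Twist2 to 3630 for Rgs5. Of the marker genes of other cells, 8 of 8 macrophage genes passed the test given below as higher in mdx5cv. Of endothelial genes 7 of 8 passed as lower, and of muscle fiber genes 2 of 8. Over all genes tested 20.9% passed as higher and 20.1% as lower, so the muscle fiber share was near that of all genes. A factor that gives all libraries equal totals would put the median over all genes at 0.36 rather than 0.00 on the log2 scale.

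In mdx5cv muscle 4 of the markers were higher, 1 was lower and 4 did not pass the test, while Twist2 lay under the filter of a mean normalized count of 10 and was not tested. Pdgfra, Pdgfrb, Thy1 and Tcf7l2 were higher and Rgs5 was lower. The test was limma on log2(normalized count + 1) over 13677 genes, and a gene passed at a Benjamini-Hochberg adjusted p under 0.05. Among all genes tested, 20.9% passed as higher and 20.1% as lower, which is the background for these counts of 4 and 1 among 9 tested markers. With equal totals the 13677 genes gave 5444 higher and 820 lower, against 2854 and 2743 here. When a log2 fold change of 1 or more in size was also required, 1 marker, Thy1, was higher and no marker was lower, since Rgs5 changed by less than that, against 10.3% and 3.27% of all genes. The median log2 fold change was 0.32 over the 9 tested markers and 0.00 over all genes tested. The mdx5cv values lay above all WT values for 4 markers and below all of them for 1, while the groups overlapped for 5. In all genes tested the groups did not overlap for 20.3% with mdx5cv higher and for 19.8% with mdx5cv lower.

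**Figure D1:**
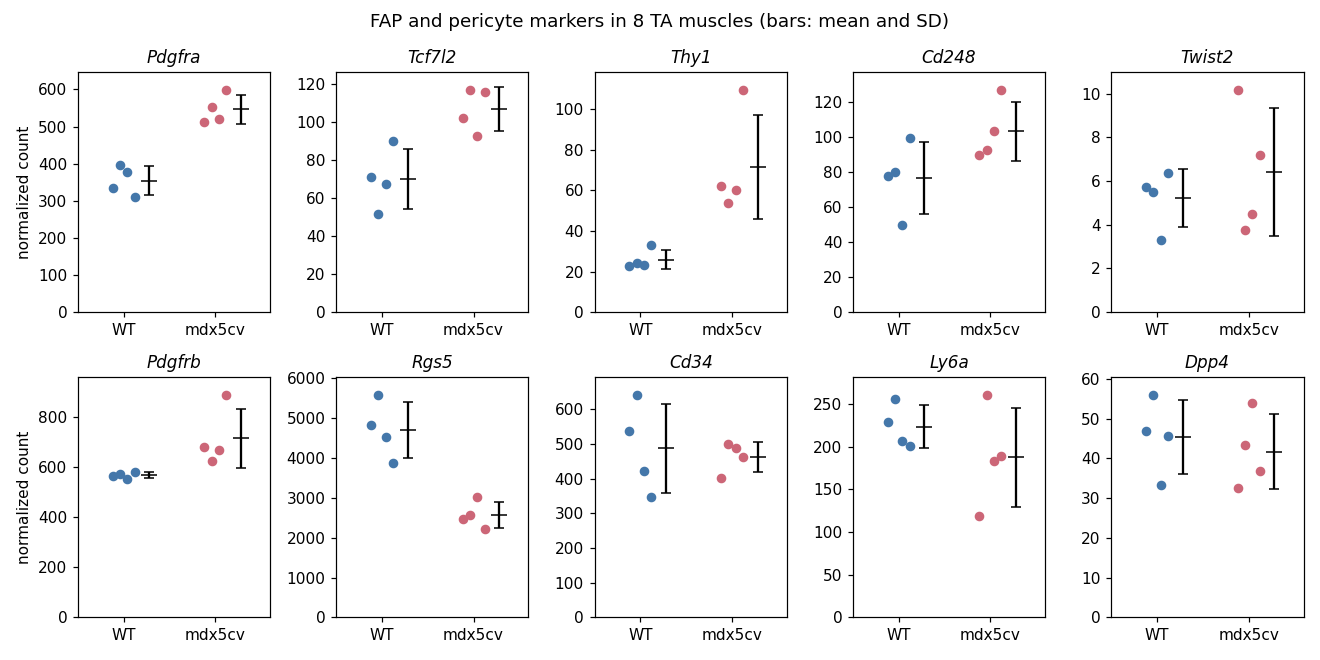
Normalized count of each of the 10 markers (vertical axes, each starting at 0) in the 4 WT muscles (blue) and the 4 mdx5cv muscles (red), with the mean and SD of each group in black. The red points lie above every blue point for Pdgfra, Tcf7l2, Thy1 and Pdgfrb and below every blue point for Rgs5, and the groups overlap for the other 5 genes.

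Pdgfra encodes the receptor for PDGF-A and PDGF-C that defines FAPs. The gene lies at chr5:75152292-75198215 on the plus strand (GRCm38, GENCODE M21). The WT muscles held 335, 396, 377 and 310 normalized counts and the mdx5cv muscles 512, 553, 520 and 599. Every mdx5cv muscle was above every WT muscle. The means were 355 ± 39.0 and 546 ± 39.5 (SD, n = 4 each), a 1.54-fold difference with a log2 fold change of 0.63 (SE 0.11, adjusted p = 0.00062, limma). In a bulk sample, a different number of cells of a type and a different amount of RNA per cell cannot be told apart, and this holds for every marker here. The annotation places the antisense genes Gm42802 and Gm42803 over Pdgfra exons. The library kit keeps the strand, but whether the counting used it was not given in the sources used here, so reads from these partners may be included.

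Tcf7l2 encodes a transcription factor that acts with beta-catenin in Wnt signaling and marks connective tissue fibroblasts of muscle (chr19:55741820-55933654, plus strand). It stood at 71.1, 51.6, 67.4 and 90.04 normalized counts in WT and at 102, 117, 92.7 and 116 in mdx5cv. The groups were separate, with the lowest mdx5cv muscle just above the highest WT muscle. Its log2 fold change of 0.62 (SE 0.18, adjusted p = 0.0121, limma) was close to that of Pdgfra, but its values were more spread.

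Thy1 (CD90), a surface glycoprotein of fibroblasts that is also found on T lymphocytes, showed the highest fold change of the 9 tested markers (chr9:44043384-44048579, plus strand). It held 22.9, 24.1, 23.2 and 32.8 normalized counts in WT and 62.1, 53.8, 60.3 and 109 in mdx5cv. The groups did not overlap, and in both groups replicate 4 was the highest muscle. The means were 25.8 ± 4.74 and 71.4 ± 25.6 (SD, n = 4 each). The log2 fold change was 1.39 (SE 0.24, adjusted p = 0.000482, limma), which is 2.63-fold on the scale of the fit. Transcripts of T lymphocytes also differed between the groups: the 8 T cell genes Cd3e, Cd3d, Cd3g, Lck, Cd2, Cd4, Cd8a and Trac summed to 6.36 to 12.1 normalized counts in WT and to 37.1 to 66.3 in mdx5cv. None of the 8 reached the filter (0 of 8 tested by limma; with no filter 6 passed, and with DESeq2 4), and Cd3e and Cd8a were at 0 in all WT muscles. The part of these cells in the Thy1 difference was not tested.

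Cd248 (endosialin), a surface protein of perivascular and stromal cells, had values in the same direction that did not pass the test (chr19:5068078-5070682, plus strand). It held 77.9, 80.1, 49.8 and 99.6 normalized counts in WT and 89.9, 92.4, 104 and 127 in mdx5cv. WT replicate 4 lay above 2 of the mdx5cv muscles. The log2 fold change was 0.45 (SE 0.20, adjusted p = 0.092, limma), and without WT replicate 4 it was 0.59 with an adjusted p of 0.0358. With equal totals it was 0.80 with an adjusted p of 0.0124, which makes 5 higher markers under that scaling.

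Twist2, a basic helix-loop-helix transcription factor of mesenchymal cells, was close to the detection limit (chr1:91801461-91848028, plus strand, with the antisense gene Gm29100 over its exons). It had 3 to 11 reads per muscle, with 5.73, 5.48, 3.32 and 6.36 normalized counts in WT and 10.2, 3.77, 4.50 and 7.19 in mdx5cv. The groups overlapped, and Twist2 was under the filter of the main test. With no filter on low values 3 markers passed as higher and 1 as lower, and Twist2 was not among them.

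Pdgfrb encodes the PDGF-B receptor of pericytes and other mural cells, and FAPs also express it (chr18:61045150-61085061, plus strand). It held 563, 573, 552 and 579 normalized counts in WT and 680, 623, 668 and 888 in mdx5cv. The WT values were tightly grouped, every mdx5cv muscle was above them, and mdx5cv replicate 4 was the highest. The means of 567 ± 12.1 and 715 ± 118 (SD, n = 4 each) gave a log2 fold change of 0.32 (SE 0.12, adjusted p = 0.0395, limma). This call was close to the threshold. Leaving out any WT muscle, or mdx5cv replicate 1, 3 or 4, gave adjusted p-values from 0.0503 to 0.0919, and without mdx5cv replicate 4 the log2 fold change was 0.21. Centring each library on its median gave 0.23 (adjusted p = 0.115).

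Rgs5 encodes a regulator of G protein signaling that is among the most used pericyte markers, and it had the opposite direction (chr1:169655501-169695813, plus strand). It held 4821, 5576, 4518 and 3869 normalized counts in WT and 2466, 2555, 3018 and 2220 in mdx5cv. The highest mdx5cv muscle was below the lowest WT muscle. The means were 4696 ± 708 and 2565 ± 334 (SD, n = 4 each), 1.83-fold lower in mdx5cv, with a log2 fold change of -0.87 (SE 0.13, adjusted p = 0.000206, limma). It stayed lower under all 19 alternative settings tried, with log2 fold changes from -0.96 to -0.51. The 2 markers thus moved in opposite directions in the same muscles, Pdgfra up and Rgs5 down.

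The 250 bases upstream of the RefSeq start of these genes (GRCm38.p6) are printed because they are the FAP and the pericyte marker with opposite changes. Promoters of 6 of the 10 markers were matched, and those of Pdgfrb, Ly6a, Thy1 and Cd248 were not analysed here. Both are on the plus strand, Rgs5 at chr1:169655251-169655500 and Pdgfra at chr5:75152001-75152250, and the Pdgfra start in RefSeq lies upstream of its start in GENCODE. Each was searched on both strands for the TATA box (letters TATAAA), the CCAAT box (CCAAT), the GC box (GGGCGG), the E-box (CANNTG) and the AP-1 site (TGANTCA), a set chosen after the values were seen. The capitals mark the matches, none of which overlaps another.
Rgs5: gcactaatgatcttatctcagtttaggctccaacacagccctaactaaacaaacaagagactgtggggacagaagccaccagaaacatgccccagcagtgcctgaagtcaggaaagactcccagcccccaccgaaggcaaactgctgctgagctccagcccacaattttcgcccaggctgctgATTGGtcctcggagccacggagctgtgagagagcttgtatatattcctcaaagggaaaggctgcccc
Pdgfra: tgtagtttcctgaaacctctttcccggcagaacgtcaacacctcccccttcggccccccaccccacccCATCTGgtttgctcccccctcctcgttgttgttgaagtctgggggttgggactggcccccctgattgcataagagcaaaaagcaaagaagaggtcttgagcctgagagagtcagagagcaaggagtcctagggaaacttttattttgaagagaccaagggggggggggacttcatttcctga
The Rgs5 window held 1 match, CCAAT on the minus strand, which is ATTGG on the printed plus strand, 67 bases upstream of the start. The Pdgfra window held 1 match, an E-box 182 bases upstream. Such matches are common: of 32851 RefSeq promoter windows of this length, 33.8% held a CCAAT box, 66.2% an E-box, 32.7% a GC box, 12.4% a TATA box and 6.75% an AP-1 site.

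Cd34, Ly6a and Dpp4 did not pass the test. Cd34 encodes a sialomucin of FAPs, endothelial cells and satellite cells (chr1:194938819-194961279, plus strand, with the antisense gene Gm16897 over its exons). It held 539, 642, 421 and 349 normalized counts in WT and 401, 500, 488 and 462 in mdx5cv. All mdx5cv values lay inside the WT range. The log2 fold change was -0.04 (SE 0.16, adjusted p = 0.862, limma).

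Ly6a encodes Sca-1, the surface protein used with PDGFRα to sort FAPs from mouse muscle (chr15:74994877-74998031, minus strand). It held 229, 256, 207 and 200 normalized counts in WT and 119, 260, 183 and 189 in mdx5cv. Of the mdx5cv muscles 3 lay below the WT range, and replicate 2 lay above it. The log2 fold change was -0.30 (SE 0.19, adjusted p = 0.244, limma). Without mdx5cv replicate 2 it was -0.47 with an adjusted p of 0.0483, and with equal totals it was 0.06. Ly6a belongs to a cluster of closely related Ly6 genes, and how reads shared with its relatives were counted was not given in the sources used here, so its count is uncertain.

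Dpp4 encodes a surface peptidase of a FAP subset in the outer connective tissue (chr2:62330073-62412231, minus strand, with the antisense gene Gm13561 over its exons). It held 47.0, 55.9, 33.2 and 45.6 normalized counts in WT and 32.4, 43.4, 54.0 and 36.8 in mdx5cv. The groups overlapped over most of their range. The log2 fold change was -0.12 (SE 0.22, adjusted p = 0.679, limma), and with equal totals the values of Cd34 and Dpp4 were 0.32 and 0.23, neither of which passed the test.

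Transcripts of endothelial cells, which also make Cd34 and Ly6a, differed between the groups. The 8 genes Pecam1, Cdh5, Kdr, Tie1, Tek, Cldn5, Emcn and Egfl7 summed to 3410 to 4140 normalized counts in WT and to 2118 to 2717 in mdx5cv. Of these 8 genes 7 passed the test as lower, against 20.1% of all genes tested (3 of 8 with equal totals). Tek, the angiopoietin receptor, had a log2 fold change of -0.88, Cldn5, a tight junction protein, -0.85, and Pecam1 -0.73. None of the endothelial markers was near 0. The part of endothelial cells in the values of Cd34, Ly6a and Rgs5 was not tested.

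**Figure D2:**
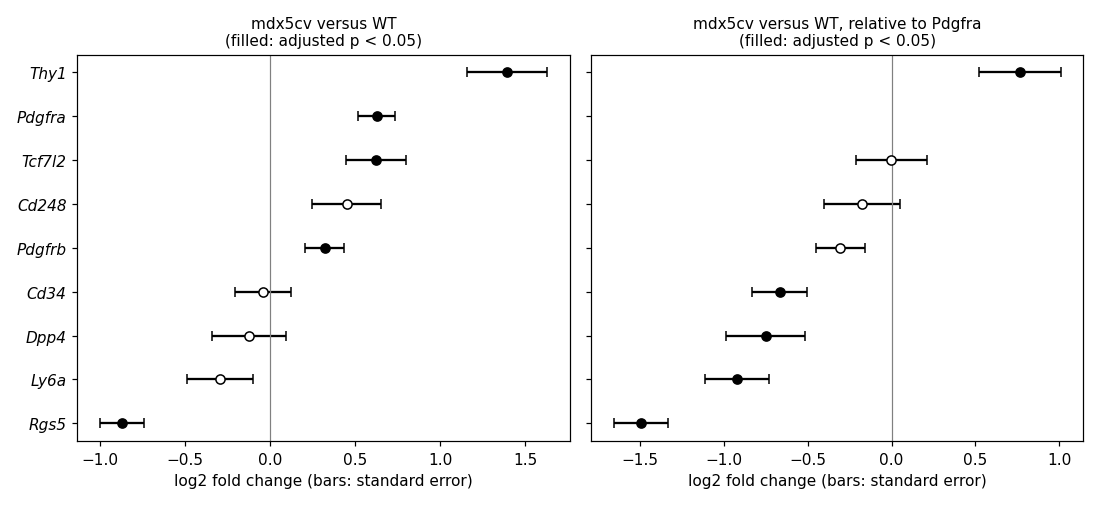
Log2 fold change between mdx5cv and WT for the 9 tested markers (left) and the same after dividing each gene by Pdgfra in its own muscle (right), with bars for the standard error and filled points for an adjusted p under 0.05. Thy1 stands at 1.39 and Rgs5 at -0.87 on the left, and relative to Pdgfra 4 markers lie on the lower side with filled points and 1, Thy1, on the higher side.

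Whether the other markers kept pace with Pdgfra was asked by dividing each gene by Pdgfra within the muscle, over 13676 genes. Of the 8 other tested markers 1 passed as higher and 4 as lower, while 8.34% of all genes passed as higher and 61.1% as lower. The share of markers that passed as lower was thus not above that of all genes. Rgs5 stood at 14.4, 14.1, 11.98 and 12.5 times the Pdgfra count in WT and at 4.81, 4.62, 5.80 and 3.70 times in mdx5cv. The groups were far apart, with a log2 difference of -1.49 (SE 0.16, adjusted p = 2.15e-06, limma). Ly6a stood at 0.685, 0.645, 0.548 and 0.645 times the Pdgfra count in WT and at 0.231, 0.471, 0.351 and 0.315 in mdx5cv, again with no overlap (log2 difference -0.92, SE 0.19, adjusted p = 0.000461, limma). Cd34 differed by -0.67 (SE 0.16, adjusted p = 0.00173) and Dpp4 by -0.75 (SE 0.24, adjusted p = 0.00976), with Dpp4 overlapping between the groups. Thy1 was higher relative to Pdgfra by 0.77 (SE 0.24, adjusted p = 0.0107, limma), and its groups overlapped in that WT replicate 4 lay above mdx5cv replicate 2. Tcf7l2 (0.00, SE 0.21), Cd248 (-0.18, SE 0.22) and Pdgfrb (-0.31, SE 0.14) did not pass this test, with adjusted p-values of 0.993, 0.492 and 0.0699. Pdgfrb did pass as lower relative to Pdgfra without WT replicate 2 (-0.36, adjusted p = 0.0435) or mdx5cv replicate 4 (-0.37, adjusted p = 0.0299). The counts of 1 and 4 were the same with equal totals, as a ratio within a muscle does not depend on the scaling of the library.

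**Figure D3:**
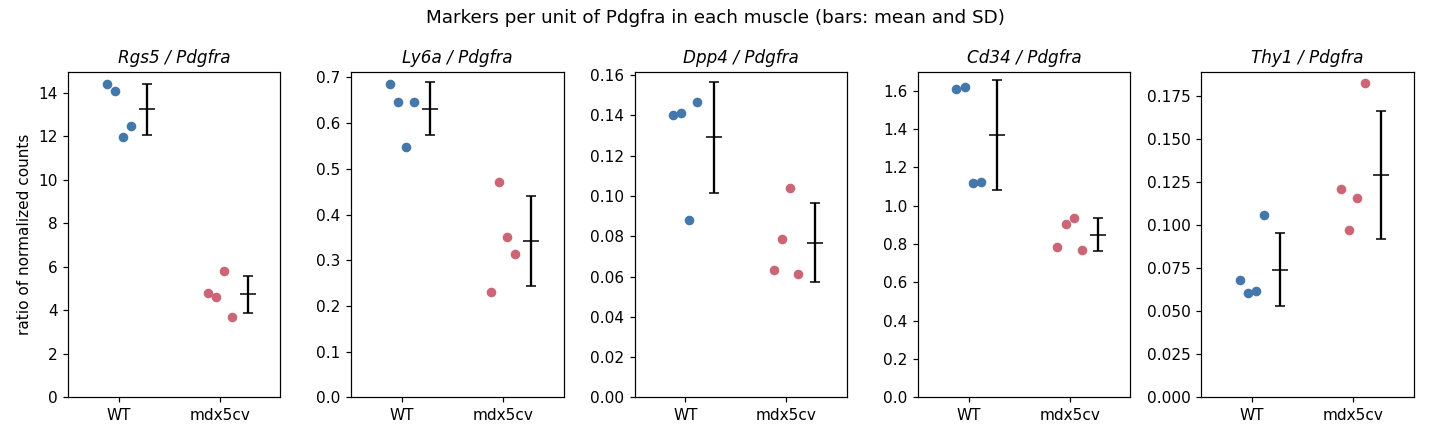
Ratio of the normalized count of 5 markers to that of Pdgfra in the same muscle (vertical axes, each starting at 0), for 4 WT (blue) and 4 mdx5cv (red) muscles with the mean and SD in black. Rgs5 lies between 11.98 and 14.4 in WT and between 3.70 and 5.80 in mdx5cv, while Thy1 is the gene with the higher ratio in mdx5cv.

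Levels of different genes were compared per kilobase of exon. In WT the order was Rgs5 (1033 ± 156 normalized counts per kilobase), Ly6a (185 ± 20.8), Pdgfrb (103 ± 2.20), Cd34 (66.9 ± 17.7), Pdgfra (35.4 ± 3.89), Cd248 (29.5 ± 7.87), Thy1 (8.61 ± 1.58), Tcf7l2 (7.98 ± 1.80), Dpp4 (7.19 ± 1.48) and Twist2 (1.65 ± 0.416, SD, n = 4). In this order Pdgfra and Cd248 overlapped, as did Thy1 with Tcf7l2 and Tcf7l2 with Dpp4. The order of the means in mdx5cv was the same, from Rgs5 (564 ± 73.5), Ly6a (156 ± 48.1), Pdgfrb (130 ± 21.6), Cd34 (63.5 ± 6.04) and Pdgfra (54.5 ± 3.94) to Cd248 (39.6 ± 6.51), Thy1 (23.8 ± 8.56), Tcf7l2 (12.2 ± 1.33), Dpp4 (6.59 ± 1.49) and Twist2 (2.02 ± 0.918). There the overlapping neighbours were Ly6a with Pdgfrb, Cd34 with Pdgfra, and Cd248 with Thy1. Rgs5 was the most abundant of the 10 per kilobase in both genotypes. With the length of the longest transcript in place of all exons, 6 of the 10 markers kept their rank in each group.

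Other genes of FAPs fell into those that were much higher in mdx5cv and those that were not. The gene lists here and below were chosen with earlier results of these data known, so their counts are given as a description. Of 10 FAP and fibroblast matrix genes 7 were higher, against 20.9% of all genes tested, and the list had a median of 1.70 on the log2 scale. Col1a1, a chain of type I collagen, went from 780 ± 161 to 6996 ± 2217 normalized counts (log2 fold change 3.13), Col3a1 from 1485 ± 402 to 12659 ± 3557 (3.09), Fn1 (fibronectin) from 805 ± 105 to 4266 ± 1602 (2.35) and Col1a2 from 1419 ± 284 to 7048 ± 1914 (2.29, SD, n = 4 each). The other 3 genes of the list did not pass: the proteoglycan gene Dcn had a log2 fold change of -0.24, Gsn -0.45 and Clec3b 0.13. Without WT replicate 4, 1 gene (Dcn) passed as lower, as did Gsn without mdx5cv replicate 2 or 3.

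The 7 tested genes of activated FAPs were higher, with a median of 3.04, against 20.9% of all genes tested. The lowest of them was Acta2 (0.78), which is also counted among the smooth muscle genes below. Timp1 and Adam12 reached the filter through the mdx5cv muscles. With a normalized count of 10 required in every muscle 4 genes remained and were higher, and with no filter the count was 7. Postn (periostin) went from 88.0 ± 31.9 to 1601 ± 876 normalized counts (log2 fold change 4.07), Timp1, an inhibitor of matrix metalloproteinases, from 3.91 ± 2.79 to 75.7 ± 33.0 (4.03), Adam12 from 6.77 ± 5.47 to 85.6 ± 45.4 (3.53) and Tnc (tenascin C) from 79.8 ± 40.9 to 649 ± 343 (3.04, SD, n = 4 each). These differences were larger than that of any of the 10 markers. Dlk1, the eighth gene of the list, had at most 3 reads.

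Genes of the FAP subsets divided. Of 6 tested genes that accompany Dpp4, Mfap5 (1.40), Fbn1 (1.35) and Cd55 (0.42) were higher on the log2 scale, Sema3c was lower (-0.50), and Pi16, the gene most tied to this subset, stood at -0.01 (adjusted p = 0.977, limma). Of 6 genes of the Cxcl14 subset, 1 was higher, Col15a1 (1.17), and 1 lower, Apod (-0.53), and Cxcl14 itself stood at -0.05. The shares of all genes tested were 20.9% higher and 20.1% lower, so the counts of the Cxcl14 subset were near them. Apod did not pass without WT replicate 1 or 3 or mdx5cv replicate 1, and without WT replicate 4 a further gene passed in each direction, Podn as higher and Hsd11b1 as lower. Of 8 tested mesenchymal transcription factors, Meox1 (1.80) and Osr1 (0.71), the latter a factor of muscle connective tissue progenitors, were higher, a share near the 20.9% of all genes. Tcf21 had no read in any muscle, and Twist1 was under the filter like Twist2.

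Some other pericyte and smooth muscle genes were lower like Rgs5, and others were not. Of 10 pericyte genes 4 were lower and 2 higher, against 20.1% and 20.9% of all genes tested. The list median was -0.46 on the log2 scale. Among the 4 that did not pass was Notch3 (-0.07, adjusted p = 0.712, limma). Kcnj8 and Abcc9, subunits of an ATP-sensitive potassium channel, had log2 fold changes of -0.99 and -0.31, Vtn -0.57 and Mcam -0.52. Abcc9 stood at 4720 ± 295 normalized counts in WT against 220 ± 20.5 for Kcnj8 (SD, n = 4). Which cells of the muscle made Abcc9 was not tested. The 2 higher genes were Anpep (CD13, 2.44), an aminopeptidase also made by myeloid cells, and Cspg4 (NG2, 0.66). The count of lower pericyte genes was 1 with equal totals and 2 (Kcnj8 and Mcam) when WT replicate 1, WT replicate 4 or else replicate 2 of mdx5cv was left out. Of 6 tested smooth muscle genes 4 were lower and 1 was higher (2 and 2 with equal totals). The lower ones included Tagln (-0.96), Lmod1 (-0.91) and Myh11 (-0.87), contractile proteins of vessel walls. The higher one was Acta2 (0.78), which myofibroblasts also make and which is counted among the activated FAP genes too.

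**Figure D4:**
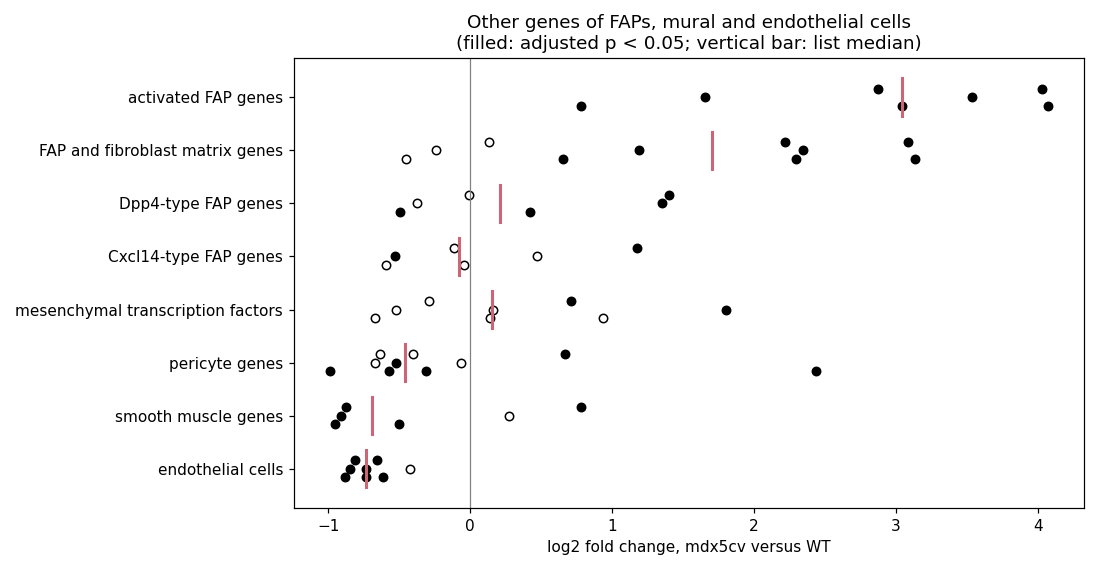
Log2 fold change between mdx5cv and WT (horizontal axis) for the tested genes of 8 lists, one point per gene, filled for an adjusted p under 0.05, with the list median as a vertical bar. Activated FAP genes center on 3.04 and matrix genes on 1.70, while pericyte, smooth muscle and endothelial genes center on -0.46, -0.69 and -0.73. Acta2 is a point in both the activated FAP and the smooth muscle list.

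Among ligands of the PDGF receptors, Pdgfc, a ligand of PDGFRα, was higher (log2 fold change 0.88, SE 0.30, adjusted p = 0.0323, limma) at a low level of 16.5 ± 6.91 against 30.3 ± 8.06 normalized counts. This call was lost with DESeq2, with no filter, and without WT replicate 1, 3 or 4 or mdx5cv replicate 1 or 4. Pdgfa (0.14), Pdgfb (0.09) and Pdgfd (-0.58, adjusted p = 0.0526) did not pass, but Pdgfd passed as lower without WT replicate 3 or mdx5cv replicate 4. Of 4 ligands 1 thus passed as higher, a share near the 20.9% of all genes tested. Of 3 related receptors 2 were tested and higher: Csf1r, which macrophages carry, had a log2 fold change of 2.56 and Kit 0.75. Flt3 was under the filter, with at most 34 reads.

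Relatives of the other markers did not follow them in common. Their counts are small and stand beside 20.9% of all genes tested that passed as higher and 20.1% as lower. Beside Ly6a, Ly6c1, an endothelial and leukocyte gene, was lower (-0.86) and Ly6e higher (0.50). Beside Dpp4, Fap, a peptidase of activated fibroblasts, was higher (0.93), Dpp6 (-0.78) and Dpp9 (-0.43) were lower and Dpp8 (-0.07) did not pass. The Dpp6 call was lost without WT replicate 1 or 3 or mdx5cv replicate 2 or 4. Beside Cd34, the sialomucins Podxl (-0.53) and Podxl2 (-0.82) were lower. Beside Cd248, Clec14a was lower (-0.67) and Thbd higher (0.34, adjusted p = 0.0469, limma), while Cd93 (0.29) did not pass. Without WT replicate 1, 3 or 4 or mdx5cv replicate 3 or 4 Thbd did not pass, and without WT replicate 1 or 2 or mdx5cv replicate 1 Clec14a did not. Beside Tcf7l2, 1 of 5 tested genes was higher, Tcf7 (1.45), a T cell factor, which is a share near that of all genes. The Tcf7 call was lost without mdx5cv replicate 1. Tcf7l1 (0.50), Ctnnb1 (-0.17) and the Wnt readouts Axin2 (0.07) and Nkd1 (-0.54) did not pass. Among the R4 family relatives of Rgs5, Rgs4, which lies close to Rgs5 on chromosome 1 and is also made by mural cells, was lower (127 ± 29.5 against 60.7 ± 3.42 normalized counts, log2 fold change -1.03), and Rgs2 (1.61) and Rgs1 (3.72), the latter a leukocyte gene with a mean under 1 in WT, were higher. Rgs3 (-0.09) did not pass. Under the filter lay Rgs16, at 2.21 to 4.24 normalized counts in WT and 7.20 to 19.8 in mdx5cv, and Rgs18, at 1.15 to 7.68 and 8.49 to 20.4. Rgs8 and Rgs13 had at most 1 read in any muscle. Rgs1 and Tcf7 reached the filter through the mdx5cv muscles and were not tested when a normalized count of 10 was required in every muscle.

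Markers of some further cell types also differed between the groups, while 20.9% of all genes tested passed as higher and 20.1% as lower. The 8 macrophage genes summed to 390 to 635 normalized counts in WT and to 2242 to 5430 in mdx5cv, and 8 of 8 were higher (6 with a normalized count of 10 required in every muscle, which drops Fcgr1 and Cd68, and 8 with no filter), with Fcgr1 at 4.77, Cd68 at 3.91, C1qb at 3.34 and Adgre1 at 3.15 on the log2 scale. Of 4 tested satellite cell genes, Fgfr4 (1.65) and Pax7 (0.91) were higher, of which Fgfr4 was not tested when a normalized count of 10 was required in every muscle. Adipocyte genes, which FAPs can come to express, were spread among WT muscles from 61.9 to 478 normalized counts in sum and lay between 15.7 and 58.3 in mdx5cv, with 3 of 4 tested genes lower (Lep, Adipoq and Cidec at -3.19, -1.88 and -1.87). Lep and Cidec reached the filter through the WT muscles. No adipocyte gene had a normalized count of 10 in every muscle, and with no filter 3 were lower. Of 5 tenocyte genes 0 passed by limma, edgeR or DESeq2, and 2 had an unadjusted p under 0.05 in limma. Of them Tnmd passed as higher without WT replicate 1 and Thbs4 without WT replicate 2, while Fmod passed as lower without WT replicate 4. Of 8 muscle fiber genes Ckm (-0.75) and Tnnt3 (-0.63) were lower, a share near that of all genes. Leaving out WT replicate 3 or mdx5cv replicate 1 left neither call, while leaving out WT replicate 1, 2 or 4 left 1. The part of any of these cells in the marker values was not tested.

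Within the groups, the genes that varied most like Pdgfra across the 8 muscles, after the group means were removed, were Ggta1 (Pearson r = 0.977), Mfhas1 (0.962) and Cdc42ep4 (0.955), among 7636 genes with a mean of at least 100. For Rgs5 they were Atp5k (0.985), Mtm1 (0.981) and Tmem204 (0.980). These are the highest values of a search over all those genes with 8 points that share libraries, and they are given as a description. Of the 3 genes like Rgs5, Atp5k (-0.68) and Tmem204 (-0.53) were lower in mdx5cv, and of the 3 like Pdgfra none passed the test between groups.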

How the data were processed

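Total RNA of 8 whole TA muscles was sequenced with a stranded, ribosomal RNA-depleted kit after Trizol extraction. Per the submitters' processing notes the tools were FastQC, Trim Galore 0.6.4, STAR 2.6.0c, SAMtools 1.9, featureCounts, MultiQC 1.6 and DESeq2 1.26.0 in R 3.6.2, with the mm10 build. The values deposited by the authors are normalized counts (a signal of reads divided by a size factor for each library). Of the values above 0, 100% became whole reads within 0.01 once the factor was undone, and the factors (0.873 to 1.25) equal those of the median-of-ratios method. Totals of the recovered reads were 13175524 to 14921057 per muscle, so counting error matters mainly for genes with few reads, and replicates differed by more than counting error (chi-square per degree of freedom 9.55 to 43.2).

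Groups came from the labels. limma 3.58.1 (lmFit, eBayes with a variance trend) in R 4.3.3 compared 4 mdx5cv with 4 WT muscles on log2(normalized count + 1) for the 13677 genes with a mean of at least 10, without covariates. A pseudocount makes the fold changes of low genes smaller. p-values were two-sided and adjusted by Benjamini-Hochberg over all genes tested. A second fit subtracted the log2 value of Pdgfra in the same muscle. Alternatives were edgeR 4.0.16 and DESeq2 1.42.0 on recovered reads, other pseudocounts, filters and scalings, no variance trend, a replicate block, and each muscle left out. Scripts were tested on simulated data. Of 55401 gene identifiers 55141 matched GENCODE M21, which gave positions and exon lengths, and sequences came from RefSeq (GRCm38.p6). Tables and figures were made with Python 3.11.15, pandas 2.3.3, numpy 2.4.6, scipy 1.17.1 and matplotlib 3.10.9.

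All 10 markers were named. From each gene list up to 4 genes with the largest absolute log2 fold change among those that passed were named, together with markers at or near 0, relatives of the markers, Dmd, and the 3 genes whose within-group deviations correlated best with Pdgfra and with Rgs5. Some list genes outside this rule were named after their values were seen: Gsn, Dcn, Clec3b, Pi16, Cxcl14, Podn, Hsd11b1, Twist1, Mcam, Abcc9, Notch3, Tnmd, Thbs4 and Fmod. The markers and lists were chosen with earlier results of these data known. A cell type list set up with the others is not reported here.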

Additional observations from a re-analysis of the deposited data

Results flagged for a closer look

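Thy1 in WT replicate 4 stood apart from the other WT muscles, at 5.08 on the log2(normalized count + 1) scale against 4.58 to 4.65 in the other 3. Its gap took 0.858 of the range of the group, above Dixon's 95% critical value for 4 samples. This was 1 of 34 sets of values examined (10 markers and 7 summed cell type lists in each group), of which chance alone would set apart about 1.7. The mdx5cv muscles lay above this muscle too, and the Thy1 log2 fold change ranged from 1.15 to 1.74 over the 19 alternative settings.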

How the results depend on the processing

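The calls of Pdgfra, Thy1, Tcf7l2 and Rgs5 held under all 19 alternatives, and the relative calls of Rgs5, Ly6a, Cd34, Dpp4 and Thy1 under all 17 run for that fit, 3 of which are scalings that change a ratio within a muscle only through the pseudocount. Pdgfrb kept its call in 9 of 19, with adjusted p-values up to 0.115. The cause of the changes below was not tested. A stricter filter drops genes, and a left-out muscle lowers the sample size, but calls were both lost and gained when muscles were left out. Equal totals put the median over all genes at 0.36 rather than 0.00 on the log2 scale: the genes higher were then 5444 and those lower 820, and Cd34 (0.32), Dpp4 (0.23) and Ly6a (0.061) changed sign without passing. With it the counts of higher genes were 2 each for CD248 relatives, Cxcl14-type FAP genes, DPP4 relatives, the TCF/LEF list, smooth muscle genes and tenocytes, 3 for PDGF ligands, 5 for mesenchymal transcription factors and 1 for muscle fibers. The counts of lower genes were then 0 for CD248 relatives, Cxcl14-type and Dpp4-type FAP genes and DPP4 relatives, 1 for CD34 relatives, muscle fibers and pericyte genes, 2 for smooth muscle and 3 for endothelial genes. With no filter on low values the higher genes were 0 for CD248 relatives and PDGF ligands, 1 for mesenchymal transcription factors, 2 for Ly6 relatives, 4 for R4 RGS relatives and 6 for T lymphocytes, and the lower muscle fiber genes were 0. DESeq2 gave 0 higher genes for CD248 relatives and PDGF ligands, 2 for Ly6 relatives, 4 for R4 RGS relatives and 4 for T lymphocytes. Requiring a count of 10 in every muscle left 4 higher genes of activated FAPs, 1 of R4 RGS relatives, 1 of satellite cells and 0 of the TCF/LEF list, and 0 lower adipocyte genes, and it gave 1 lower PDGF ligand. Median centring gave 0 higher CD248 relatives, 2 lower Cxcl14-type genes, and 1 lower gene each for FAP matrix genes, PDGF ligands, the TCF/LEF list and mesenchymal transcription factors. Without the variance trend 0 CD248 relatives were higher, 2 pericyte genes were lower and 1 PDGF ligand was lower. A pseudocount of 10 gave 1 lower PDGF ligand, and one of 0.1 moved Tcf7l2 relative to Pdgfra from -0.0024 to 0.0033. Exon length taken from the longest transcript kept 6 ranks of 10 in WT and 6 in mdx5cv.

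Some counts moved when muscles were left out one at a time. The markers lower were 1 to 2 (2 without mdx5cv replicate 2). The lower pericyte genes were 2 to 4, lower muscle fiber genes 0 to 2, lower DPP4 relatives 1 to 2, and lower Cxcl14-type genes 0 to 2 with 1 to 2 higher. Higher and lower CD248 relatives, higher and lower PDGF ligands, higher TCF/LEF genes, lower FAP matrix genes, and higher and lower tenocyte genes ranged from 0 to 1. Cd34 ranged from -0.19 to 0.10 on the log2 scale, Cd248 relative to Pdgfra from -0.40 to 0.023, and Tcf7l2 relative to Pdgfra from -0.19 to 0.19.

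Deviations of muscles with the same replicate number in both groups were only weakly correlated (0.0501, 0.0309, 0.0722 and 0.146), and nothing in the labels pairs these muscles. A replicate block gave 2880 higher and 2736 lower genes, the same 4 higher and 1 lower counts among the markers, and moved 4 list counts: 2 lower Cxcl14-type genes, 1 lower FAP matrix gene, 1 lower PDGF ligand and 1 higher tenocyte gene. Muscles numbered 3 and 4 matched best with their own number in both directions, and those numbered 1 and 2 did not. Low read counts limit Twist2, the T cell genes and most adipocyte genes, and 4 muscles per group limit what can be said of markers that did not pass.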
